A study of Mus musculus with 4 samples.

Results

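Mouse chromosome 11 was examined as the chromosome that carries Trp53, the gene targeted in these animals. Its members were the array probes that the deposited files place on chromosome 11 of the mouse build mm9, without the 2 probes named Trp53. This left 8360 of 169093 placed probes, between positions 3026911 and 121841954. The rule used positions and names and no measured value, although the chromosome was picked with earlier results of these data known. The question put to the data was whether the chromosome showed a broad gain or loss, or a local change around the targeted gene, for which position 69400000 was taken.

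Trp53 encodes p53, a transcription factor that halts the cell cycle or triggers cell death after DNA damage. Cells without p53 tolerate breaks and missegregated chromosomes, and tumours that lose a tumour suppressor often do so by deleting it together with its neighbours or by losing the chromosome. Mouse chromosome 11 shares much of its gene order with human chromosome 17, and so holds Nf1, Brca1 and Erbb2 on the same chromosome as Trp53. In array comparative genomic hybridization, DNA of tumour and normal tissue is labelled in separate colours and hybridised together, so that a gain in the tumour gives a log2 ratio above 0 and a loss one below 0.

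Liver tumours from 4 individual C57BL/6J mice with the genotype Trp53-/- (tumours 1 to 4, 1 array each) were each set against spleen DNA that the labels describe as pooled from 3 littermates of the same sex. The series title restricts the loss of Trp53 to the liver, while the labels give Trp53-/- and male for the spleen as well as for the tumour. The driver of the liver-specific loss and the age of the animals are not stated in the labels, and the labelling protocol calls the reference liver where the sample fields call it spleen. Tumour DNA carried Cy5 and spleen DNA Cy3 on all arrays, with no dye swap, and the tumours form 1 group that was compared with a ratio of 0. A ratio from bulk DNA cannot tell a change in few cells from a smaller change in many. The tissue labels were not checked here.

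Some arrays stood apart. The mean log2 ratio of chromosome X was -0.82, -0.054, -0.0061 and 0.84 in tumours 1 to 4, and that of chromosome Y was 2.22, -0.087, -0.20 and -2.35. Arrays 1 and 4 thus carried opposite and large sex chromosome ratios although every channel is labelled male. The median log2 signal of the Y probes, relative to the autosomal median of the same channel, was -1.38 in the tumour and -3.68 in the spleen on array 1, and -3.44 in the tumour and -0.99 in the spleen on array 4. On arrays 2 and 3 both channels lay between -1.11 and -0.90. On arrays 1 and 4 the tumour and spleen DNA thus went against the label of a shared sex. Their ratios correlated at r = -0.61 over all 169093 placed probes and at r = 0.18 over the autosomal ones. The dyes are stated in the labels, so the direction was kept, and results are also given from tumours 2 and 3 alone. The SD between neighbouring autosomal probes was 0.12, 0.37, 0.15 and 0.15 in tumours 1 to 4, so tumour 2 was the least precise. At least 98.99% of the chromosome 11 spots were well above background in either channel of each array, and precision is limited by having 4 arrays.

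The array's probes are 60-base oligonucleotides, and 6 of them are shown because the single-probe results below turn on them. They are printed as the deposited files give them, in lower case, with mm9 positions and with no strand stated. The first 4 were high in tumour 1 and low in tumour 4, and the last 2 lie beside each other and were high in tumours 2 and 3.
chr11:83492037-83492096: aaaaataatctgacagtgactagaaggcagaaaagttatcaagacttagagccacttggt
chr11:83497710-83497769: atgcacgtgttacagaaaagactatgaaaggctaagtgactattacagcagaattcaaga
chr11:83957573-83957632: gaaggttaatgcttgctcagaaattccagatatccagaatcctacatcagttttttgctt
chr11:89546081-89546140: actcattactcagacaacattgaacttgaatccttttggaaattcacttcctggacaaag
chr11:103381561-103381620: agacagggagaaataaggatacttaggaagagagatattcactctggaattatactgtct
chr11:103387667-103387726: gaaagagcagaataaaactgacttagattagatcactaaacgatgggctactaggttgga

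The chromosome as a whole stayed close to the autosomal median. Averaged over its probes, it stood at 0.039, 0.019, 0.0025 and -0.023 (log2 ratio, tumours 1 to 4). It was slightly above 0 in 3 tumours and slightly below 0 in tumour 4, and the mean over tumours was 0.0093 ± 0.026 (SD, n = 4). The exact two-sided sign-flip permutation test gave p = 0.625, or 0.833 after Benjamini-Hochberg adjustment over the 4 contrasts described here. With 4 tumours this test cannot give a p below 0.125. In the limma fit over the 19 autosome means its adjusted p was 0.671. Tumours 2 and 3 alone gave a mean of 0.011. With each array centred on its mode the mean turned to -0.013, and without tumour 1 it was -0.00057. Chromosome 15 had the autosome mean furthest from 0, with 0.21, 0.29, 0.14 and 0.24 in tumours 1 to 4 (limma adjusted p = 0.0063). Next came chromosome 12, with -0.17, -0.034, -0.11 and -0.18 (limma adjusted p = 0.053). Chromosome 9 followed with -0.17, -0.0031, -0.12 and -0.20 (limma adjusted p = 0.095). Differences between the chromosomes were not tested.

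**Figure D1:**
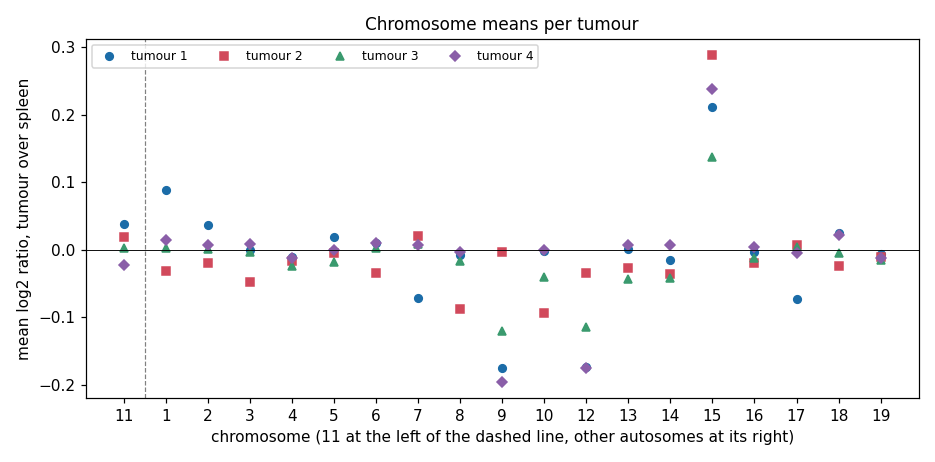
Mean log2 ratio of tumour over spleen (y axis) for chromosome 11, at the left of the dashed line, and for the other autosomes (x axis), with 1 marker per tumour. The chromosome 11 markers lie between -0.023 and 0.039, while those of chromosome 15 lie between 0.14 and 0.29.

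In 5 Mb bins no stretch of chromosome 11 was called. The 25 bins ranged over 0.022 to 0.062 in tumour 1, over -0.078 to 0.11 in tumour 2, over -0.030 to 0.041 in tumour 3 and over -0.083 to 0.050 in tumour 4. Every bin lay above 0 in tumour 1, 18 did so in tumour 2, 15 in tumour 3 and 7 in tumour 4. The number at or beyond 0.1 or -0.1 was 0, 2, 0 and 0 in tumours 1 to 4, where the autosomes had 17.3%, 20.9%, 12.7% and 14.5% of their bins past that size. Of the 25 bins 0 passed limma at an adjusted p under 0.05, against 10.8% of all 502 autosomal bins (4.18% higher and 6.57% lower), and 0 had an unadjusted p under 0.05 (14.3% of the autosomal bins did). The smallest adjusted p was 0.573, for the bin that holds the Trp53 position. Only the bin from 35 Mb lay above 0 in 4 of 4 tumours, at 0.030, 0.017, 0.0021 and 0.050, or 1 of 25 where 7.37% of the autosomal bins did so.

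The bin from 120 Mb to the end of the chromosome had the highest mean. Its values were 0.060, 0.10, 0.041 and -0.059 in tumours 1 to 4, so that tumour 4 went the other way (mean 0.036 ± 0.069, SD, n = 4). The bin from 115 Mb had 0.054, 0.11, 0.0094 and -0.036, a mean of 0.034 ± 0.062. Without tumour 2 the means of these bins were 0.014 and 0.0091, and without tumour 4 they were 0.068 and 0.058. The bin from 65 Mb to 70 Mb, which spans the Trp53 position, had 0.062, 0.066, 0.017 and -0.0092, a mean of 0.034 ± 0.036. In tumour 1 it was the highest of the 25 bins. All 3 spreads were as large as the means or larger.

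The lowest bins lay apart from the targeted gene. The bin from 90 Mb had 0.025, -0.021, -0.030 and -0.034 in tumours 1 to 4 (mean -0.015 ± 0.027, SD, n = 4). The bins from 20 Mb and from 85 Mb both averaged -0.013. In tumour 4 the bin from 85 Mb was its lowest on the chromosome, at -0.083, while tumour 1 had 0.058 there. With the intensity trend removed the mean of that bin was 0.0012.

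Bin levels moved with base composition, most of all on the noisy array, and with gene content. Across the 25 bins the correlation between the bin mean and the mean GC content of its probes was 0.35, 0.82, 0.20 and -0.40 in tumours 1 to 4. With the number of gene names in the bin it was 0.14, 0.59, 0.20 and -0.59. Base composition and gene content were not told apart. Bins on 1 array share that array's labelling reaction, so this is a description and no test was made. With the GC trend removed, the bin from 120 Mb averaged 0.017 and the bin from 115 Mb 0.020.

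**Figure D2:**
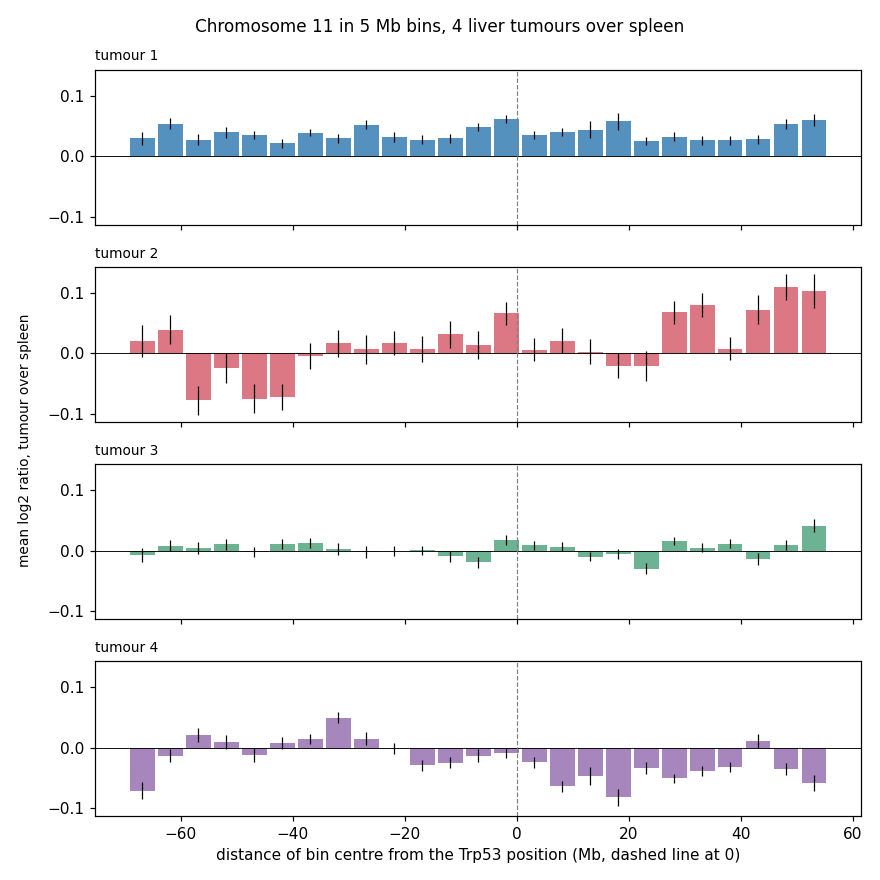
Mean log2 ratio of tumour over spleen (y axis) in the 25 bins of 5 Mb along chromosome 11 by distance from the Trp53 position (x axis, Mb), 1 panel per tumour. Bars are bin means and the vertical lines show the SD over the bin's probes divided by the root of their number. All bins stay between -0.083 and 0.11, and the bin just left of the dashed line is the highest of tumour 1, at 0.062.

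Segmentation gave no called gain or loss on chromosome 11. A segment was called at 5 or more probes and a mean at or beyond 0.2 or -0.2, and the share of the chromosome in called segments was 0% in each of the 4 tumours. Over all autosomes the called share was 4.55%, 4.56%, 0.174% and 7.64% in tumours 1 to 4. The segments of 5 or more probes on chromosome 11 had means between 0.020 and 0.056 in tumour 1, between -0.00058 and 0.074 in tumour 2, between 0.00063 and 0.010 in tumour 3 and between -0.069 and 0.034 in tumour 4. All lay well inside the call limits.

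The segment that held the Trp53 position ran from 46445166 to 71091744 in tumour 1, with a mean of 0.042. In tumour 2 it ran from the first probe to 94497462 with a mean of -0.00058, and in tumour 3 from the first probe to 103370052 with a mean of 0.00063. In tumour 4 it ran from 68423100 to 83485234 with a mean of -0.041, after a segment of 400 probes at 0.034. A step in tumour 4 therefore lay about 1 Mb from the targeted gene, between means that were both inside the call limits. The distal segment of tumour 2, 2205 probes from 94501509, had a mean of 0.074. With the GC trend removed it began at 115329419 instead and had a mean of 0.059.

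Windows around the targeted gene differed little from the rest of the chromosome. Within 1 Mb of the Trp53 position, the mean of 231 probes minus the mean of the rest of the chromosome was 0.020, 0.062, 0.025 and -0.033 in tumours 1 to 4. The mean difference was 0.019 ± 0.039 (SD, n = 4), positive in 3 of 4 tumours, with an exact sign-flip permutation p of 0.5 (adjusted 0.833). Within 5 Mb, 839 probes exceeded the rest of the chromosome by 0.014, 0.020, 0.011 and 0.015. This small difference had the same sign in 4 of 4 tumours and averaged 0.015 ± 0.0040, and its exact sign-flip permutation p of 0.125 (adjusted 0.5) is the smallest that 4 tumours can give. It was 0.0085 with normexp correction, 0.0088 without probes at or beyond 1, and 0.0073 with medians over probes, where the exact sign-flip permutation p was 0.25. The distal side minus the proximal side differed by 6.2e-05, 0.040, 0.0026 and -0.040, with a mean of 0.00059 ± 0.032 and an exact sign-flip permutation p of 0.875. Tumours 2 and 4 opposed each other there. From tumours 2 and 3 alone the 3 differences averaged 0.044, 0.016 and 0.021.

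Nearer to the gene the window means differed in sign between tumours. The 39 probes within 200 kb averaged 0.047, 0.063, -0.017 and -0.12 in tumours 1 to 4, and the 18 probes within 100 kb averaged 0.051, 0.050, -0.035 and -0.088. Tumours 1 and 2 lay above 0 and tumours 3 and 4 below 0 in both windows. The first pair of arrays lay on 1 slide and the second pair on the other, so for this split tumour and slide cannot be told apart. The wider window is made up of the 200 kb bins from 69.2 Mb and from 69.4 Mb, which hold the same probes. Within these bins taken apart, the pairs did not hold. Tumour 2 had -0.0033 in the bin from 69.4 Mb, and tumour 3 had 0.029 in the bin from 69.2 Mb. The SD over the probes divided by the root of their number was 0.084 and 0.045 there. The 2 Trp53 probes, which are no members, differed from each other: the one at 69397121 had -0.53, -0.78, -0.073 and -0.76, and the one at 69404685 had 0.14, 0.51, 0.31 and 0.17. The nearest member on the proximal side, at 69393563, had 0.19, 0.15, -0.25 and -0.19, and the nearest on the distal side, in Atp1b2, had 0.090, -0.13, -0.29 and -0.28.

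In 200 kb bins within 5 Mb of the position, 1 of 48 bins was called by limma, higher in tumours than in spleen. This is 2.08% of the bins, against 8.54% of all 11223 autosomal bins of that length (4.19% higher and 4.35% lower). At an unadjusted p under 0.05 there were 6 bins, where the autosomal share was 20.2%. Bins above 0 in 4 of 4 tumours numbered 11 (22.9%, against 13% of the autosomal bins), and bins below 0 in 4 of 4 numbered 0, against 16.7%. At or beyond 0.2 or -0.2 there were 1, 6, 0 and 0 bins in tumours 1 to 4, where the autosomal shares were 6.24%, 16.9%, 1.28% and 7.63%.

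The called bin, from 67.2 Mb to 67.4 Mb, lies in Gas7, a growth arrest gene studied mainly in neurons, about 2 Mb proximal to Trp53. Its 17 probes averaged 0.14, 0.25, 0.063 and 0.12 in tumours 1 to 4. All tumours were above 0, with a mean of 0.144 ± 0.081 (SD, n = 4, limma adjusted p = 0.042). The call was lost without tumour 1, 3 or 4, where the bin averaged 0.146, 0.171 and 0.152, and with the mode as the centre, where it averaged 0.121. Without tumour 4, 0% of the autosomal bins were called, so the lost call there is not particular to this bin. From tumours 2 and 3 alone the Gas7 bin averaged 0.159 and was not called.

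The highest bin, from 71.0 Mb, held 9 probes at Nlrp1b and Nlrp1c. Nlrp1b encodes a sensor that starts the inflammasome, and Nlrp1c is now named as a pseudogene, Nlrp1c-ps. The bin had 0.27, 0.37, 0.012 and 0.038 in tumours 1 to 4, a mean of 0.173 ± 0.176 (SD, n = 4). Tumours 1 and 2 carried the difference, and it was not called (limma adjusted p = 0.123). The probes at 71032791 and 71107044 were not well above background in either channel on any array, and with normexp background correction the bin averaged -0.592. The third highest bin, from 68.2 Mb, spans Pik3r5 and Pik3r6, which encode regulatory subunits of phosphoinositide 3-kinase gamma. Its values of 0.086, 0.15, 0.059 and 0.078 were all above 0, with a mean of 0.094 ± 0.040 (limma adjusted p = 0.114).

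The lowest bins were small departures. The bin from 73.2 Mb, beside the olfactory receptor gene Olfr381, had 0.037, -0.16, -0.074 and -0.045 in tumours 1 to 4 (mean -0.061 ± 0.082, SD, n = 4). The bin from 73.4 Mb, beside Olfr385, averaged -0.046 ± 0.12, and the bin from 72.0 Mb, which includes Xaf1, averaged -0.036 ± 0.051. The bin that starts at the targeted gene, from 69.4 Mb, had 0.062, -0.0033, -0.043 and -0.15, and in tumour 4 it was the lowest of the 48 bins.

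**Figure D3:**
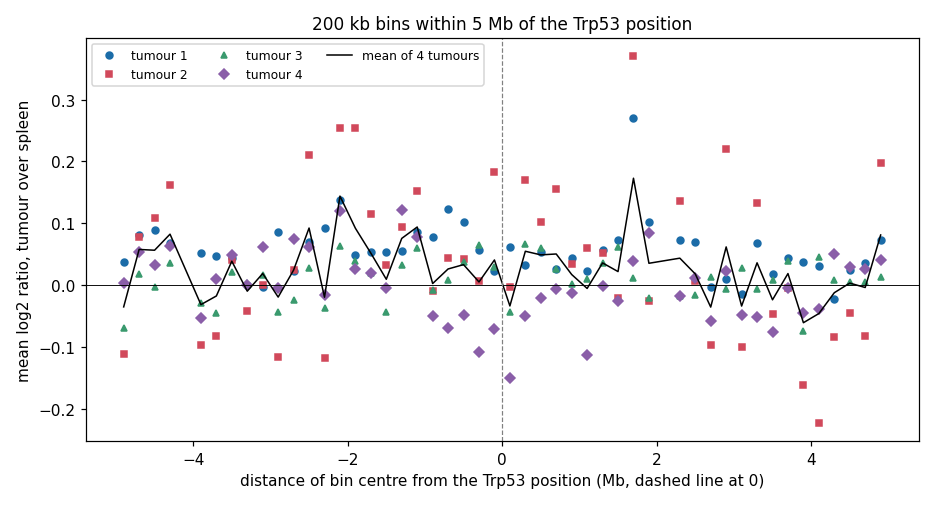
Mean log2 ratio of tumour over spleen (y axis) in 48 bins of 200 kb by distance from the Trp53 position (x axis, Mb), with 1 marker per tumour and a black line for the mean of the 4 tumours. The mean line peaks at the Nlrp1 bin (0.173) and the Gas7 bin (0.144), and the tumour 4 markers lie below 0 at the dashed line.

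The genes that flank Trp53 were mostly below 0 in tumour 4 and mostly above 0 in tumours 1 and 2, as were chromosome 11 genes at large. Of 16 genes with a probe within 200 kb, 2 lay above 0 in 4 of 4 tumours and 0 lay below 0 in 4 of 4. Among autosomal genes with at least 1 probe, 15.3% lay above 0 and 15.6% below 0 in 4 of 4. By tumour, 4, 4, 9 and 13 of the 16 lay below 0 in tumours 1 to 4, where 29.8%, 41.5%, 45.2% and 61.0% of chromosome 11 genes and 48.1%, 48.0%, 52.8% and 56.1% of autosomal genes did. In tumour 4 the exceptions were Dnah2, Sat2 and Cd68. Of the 16, those with at least 2 probes entered the limma fit of gene means, where none passed. No gene passed among the 13388 autosomal genes tested (0%), although 19% had an unadjusted p under 0.05.

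Wrap53, whose first exon overlaps that of Trp53 on the other strand and whose protein helps telomerase reach its site, had 0.024, 0.075, -0.13 and -0.054 in tumours 1 to 4 over 3 probes. Its mean was -0.022 ± 0.091 (SD, n = 4, limma adjusted p = 0.808). The median of its 3 probes in place of the mean gave 0.088. Efnb3, an ephrin ligand on the proximal side, rested on 1 probe with 0.11, -0.85, 0.13 and -0.23, where the low value came from the noisy array.

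Dnah2, a dynein heavy chain of cilia, was the highest of the neighbours with several probes. Its 4 probes averaged 0.10, 0.29, 0.15 and 0.10 in tumours 1 to 4, a mean of 0.16 ± 0.091 (SD, n = 4, limma adjusted p = 0.153). Kdm6b, a histone H3 lysine demethylase, had -0.014, 0.20, 0.048 and -0.18, and its tumours fell on both sides of 0. Naa38, a subunit of an N-terminal acetyltransferase, had -0.42, 1.06, 0.15 and -0.088 on its 1 probe.

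On the distal side Polr2a, which encodes the largest subunit of RNA polymerase II, was the lowest gene with several probes. Its values were 0.053, -0.23, -0.14 and -0.23 in tumours 1 to 4, a mean of -0.14 ± 0.14 (SD, n = 4, limma adjusted p = 0.261). Tumour 1 was the exception. Cd68, a lysosomal protein used as a macrophage marker, had 0.22, 0.56, 0.11 and 0.071 on 1 probe. Fxr2, of the fragile X RNA-binding family, had 0.029, 0.060, -0.035 and -0.15 over 4 probes, and Zbtb4, a zinc finger repressor, had 0.063, 0.11, -0.091 and -0.22. In both genes tumours 1 and 2 were above 0 and tumours 3 and 4 below.

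The other neighbours mostly lay below 0 in tumour 4, at -0.28 in Atp1b2, -0.25 in Eif4a1, -0.18 in Chrnb1, -0.10 in Tnfsf12-tnfsf13 and -0.075 in AK084182, while Sat2 had 0.073. Over the 4 tumours Atp1b2, a sodium pump subunit, averaged -0.15 ± 0.18, Sat2, an acetyltransferase, 0.063 ± 0.16, and Eif4a1, a helicase of translation initiation, 0.054 ± 0.31 (SD, n = 4 each, 1 probe each). Chrnb1, a muscle acetylcholine receptor subunit, averaged 0.026 ± 0.17, and the joint tumour necrosis factor ligand gene Tnfsf12-tnfsf13 averaged -0.060 ± 0.11. The transcript AK084182, to which the files assign 35 probes spread over more than the window, averaged 0.013 ± 0.063.

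**Figure D4:**
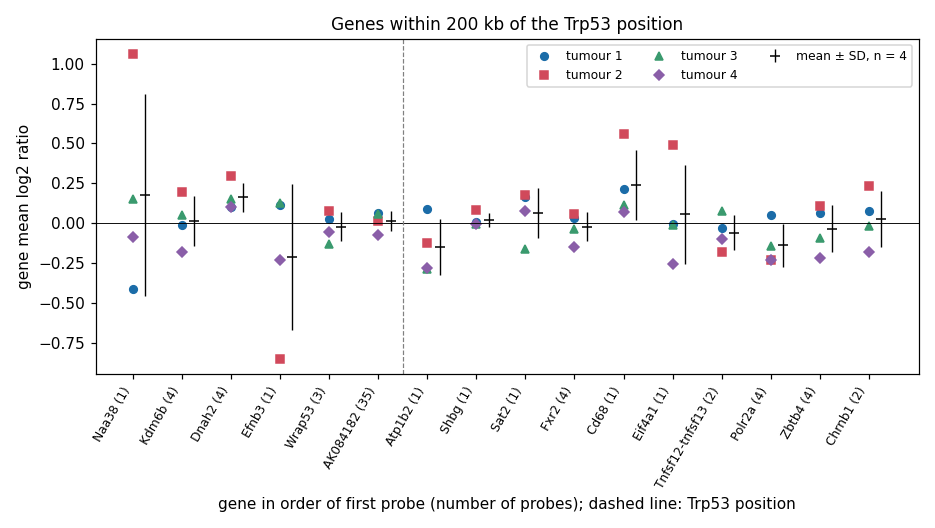
Gene mean log2 ratio of tumour over spleen (y axis) for the 16 genes with a probe within 200 kb of the Trp53 position, in order of their first probe (x axis, number of probes in brackets), with 1 marker per tumour and the mean ± SD of the 4 tumours beside it. Dnah2 and Cd68 lie above 0 in every tumour, and genes with 1 probe spread most.

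Of the genes listed as p53 network genes and Trp53 neighbours, 8 of 12 were measured on chromosome 11, 5 with at least 2 probes. The 8 include Wrap53, Efnb3 and Kdm6b, already described among the genes that flank Trp53. None of the 8 was called by limma, none had an unadjusted p under 0.05 and none kept 1 sign in 4 of 4 tumours. Their median was -0.026, beside 0.022 over 1585 chromosome 11 genes and -0.0040 over 21340 autosomal genes, and over the settings tried it lay between -0.052 and 0.019. Ppm1d, the phosphatase that switches p53 off, had 0.0078, 0.080, 0.10 and -0.022 in tumours 1 to 4, a mean of 0.041 (limma adjusted p = 0.595). Ccng1, a target of p53, had 0.083, -0.057, 0.037 and -0.18. Aurkb, a mitotic kinase, had -0.12, -0.47, 0.085 and -0.15 on 1 probe.

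Tumour suppressors were all measured, 18 of 18, with 132 probes and at least 2 each. None was called and none had an unadjusted p under 0.05, and 1 of them, Nf2, was below 0 in 4 of 4 tumours (5.56%, against 16.8% of autosomal genes with at least 2 probes). The list's median was 0.028, -0.13, 0.016 and -0.055 in tumours 1 to 4 and -0.047 over their means. It turned to 0.0025 with the sign of tumour 4 turned. Nf1, a brake on RAS, had 23 probes and values of 0.019, -0.19, 0.018 and -0.085, a mean of -0.059 (limma adjusted p = 0.527). Nf2, a membrane scaffold of the Hippo pathway, had -0.013, -0.062, -0.066 and -0.049. Brca1, a DNA repair gene, had 0.078, -0.13, 0.0019 and -0.14, which straddled 0. Map2k4, a stress kinase and the gene of the list that lies nearest to Trp53, had 0.028, -0.17, -0.043 and -0.061 over 11 probes.

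Of the growth and cell cycle genes, 20 of 22 were measured, none was called and 3 of the 19 with at least 2 probes had an unadjusted p under 0.05 (15.8%, against 19% of autosomal genes). The median was 0.0074 and took either sign over the settings tried, between -0.030 and 0.028. Erbb2, a receptor of the epidermal growth factor family, had 0.19, 0.25, 0.097 and 0.030 in tumours 1 to 4 over 4 probes, a mean of 0.14 (limma adjusted p = 0.203). Egfr, its relative near the centromere, had 0.095, 0.12, 0.064 and 0.043 over 14 probes (limma adjusted p = 0.302). These 2 were above 0 in every tumour, and 2 others, Bcl11a and Rps6kb1, were below 0 in every tumour (10% each way, against 15.3% above and 15.6% below among autosomal genes). Rps6kb1, a ribosomal protein kinase downstream of mTOR, had -0.067, -0.080, -0.14 and -0.19 (limma adjusted p = 0.198). Top2a, which untangles DNA in dividing cells, had 0.019, -0.85, -0.16 and -0.24, and the lowest value came from tumour 2.

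Of the liver metabolism genes, 16 of 18 were measured and 7 lay above 0 in 4 of 4 tumours (43.75%), beside 17.0% of all chromosome 11 genes and 15.3% of autosomal genes. None was called, 2 of the 10 with at least 2 probes had an unadjusted p under 0.05 (20%, against 19% of autosomal genes), and the median was 0.10. That median stayed between 0.035 and 0.22 over the settings tried, and the lowest came without tumour 2. By tumour the list's median was 0.045, 0.26, 0.081 and 0.031 in tumours 1 to 4. Over all chromosome 11 genes it was 0.047, 0.069, 0.013 and -0.034. Apoh, a plasma glycoprotein, had 0.038, 0.50, 0.13 and 0.21 in tumours 1 to 4 (limma adjusted p = 0.20). Tumour 2 was the highest. Acaca, the rate-limiting enzyme of fatty acid synthesis and the best covered with 21 probes, had 0.0077, 0.082, 0.063 and 0.0010. Vtn, a plasma adhesion protein, reached 1.59 in tumour 2 on its 1 probe, against 0.051, 0.011 and 0.051 in tumours 1, 3 and 4. The part of the tumour 2 noise in the list's level was not tested.

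Most members of the gene families that lie in clusters could not be called, because only genes with at least 2 probes were tested. These were 5 of 19 keratin genes, 1 of 22 olfactory receptors, 2 of 5 Hoxb genes, 1 of 7 chemokines, 3 of 7 Schlafen genes, 6 of 7 myosin genes, 3 of 6 lipoxygenases and 3 of 3 Nlrp1 genes, and none of them was called. The keratin cluster, with 19 genes measured, had a median of 0.059, with 2 genes above and 2 below 0 in 4 of 4 tumours (10.5% each way). Among all chromosome 11 genes 17.0% lay above and 8.64% below, and among autosomal genes 15.3% and 15.6%. The olfactory receptors, 22 genes in several clusters, had a median of 0.078, with 7 above 0 (31.8%) and 1, Olfr398, below 0 (4.55%) in 4 of 4. Olfr20, at 73.2 Mb, had 0.18, 0.62, 0.20 and 0.21 in tumours 1 to 4 on 1 probe. Of the 5 Hoxb genes, which pattern the body axis, Hoxb5 was above 0 and Hoxb9 below 0 in 4 of 4, so that neighbours in the cluster went opposite ways. The medians were 0.020 for 7 chemokine genes, 0.057 for 7 Schlafen genes, 0.030 for 7 myosin heavy chain genes, 0.041 for 6 lipoxygenase genes and 0.037 for 3 Nlrp1 genes. Over the settings tried the chemokine, Schlafen, myosin and Nlrp1 medians took either sign, and under normexp correction the Nlrp1 median was -0.460 and the chemokine median -0.178. No probe carried a name of the alpha globin genes.

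Over all 946 chromosome 11 genes with at least 2 probes limma called 0, 125 had an unadjusted p under 0.05 (13.2%, against 19% of autosomal genes), and the smallest adjusted p was 0.079. Dhx8, a splicing helicase, had the highest mean of those with 1 sign in every tumour. Its values were 0.21, 0.68, 0.24 and 0.22 in tumours 1 to 4, a mean of 0.34 ± 0.23 (SD, n = 4, limma adjusted p = 0.113). The other high genes were Engase (0.32), AK087906 (0.31), Arrb2, the arrestin that desensitizes receptors (0.30), and 0610025P10Rik (0.28), given as means. Tumour 2 was the highest of the 4 in each of these 5 genes. Without tumour 2 the means were 0.22 for Dhx8, 0.13 for Engase, 0.19 for AK087906, 0.16 for Arrb2 and 0.11 for 0610025P10Rik. With normexp correction AK087906 averaged 0.080.

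The lowest means with 1 sign in every tumour belonged to Zfp672, Etaa1, Zfp207, Acsf2 and Gabarap. Zfp672, a zinc finger gene, had -0.054, -0.66, -0.21 and -0.27 in tumours 1 to 4, a mean of -0.30 ± 0.26 (SD, n = 4, limma adjusted p = 0.172). Gabarap, an autophagy gene at 69.8 Mb, had -0.20, -0.36, -0.094 and -0.39, a mean of -0.26 ± 0.14 (limma adjusted p = 0.088). With the sign of tumour 4 turned the mean was -0.068. Turning 1 of 4 values of the same sign makes their mean smaller in size in any case. Acsf2, a mitochondrial acyl-CoA synthetase, averaged -0.27 and turned to 0.064 when probes at or beyond 1 or -1 in any tumour were left out. Etaa1, a replication stress factor, averaged -0.28, and Zfp207, a spindle assembly factor, averaged -0.27. Without tumour 2 the means were -0.18 for Zfp672, -0.18 for Etaa1, -0.12 for Zfp207, -0.12 for Acsf2 and -0.23 for Gabarap.

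With at least 4 probes required, limma called Lcp2 higher and Canx lower, 2 of 417 chromosome 11 genes, where 6.38% of autosomal genes were called. These 2 were named after their values were seen. Lcp2, an adaptor of T cell signalling, had 0.12, 0.32, 0.18 and 0.13 in tumours 1 to 4, and Canx, the chaperone calnexin, had -0.094, -0.22, -0.14 and -0.16. Their adjusted p was 0.041 and 0.045, and over the alternatives tried the smallest adjusted p on the chromosome ranged between 0.020 and 0.941. With normexp correction 62 genes were called (6.55%), 38 higher and 24 lower, beside 11% of autosomal genes.

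Single probes gave the furthest departures. The number of chromosome 11 probes at or above 1 was 7, 48, 1 and 1 in tumours 1 to 4, and the number at or below -1 was 0, 101, 0 and 14. Among autosomal probes 0.0522%, 1.54%, 0.0383% and 0.0924% lay at or beyond either limit in tumours 1 to 4. Of the 159 such probes on the chromosome, 140 were past the limit in tumour 2 alone, and none was so in 3 or more tumours. In 2 tumours 13 were past it, 8 of them with the same sign, a pattern not counted over all autosomes. Of the 8, the probe at 103381561 was high in tumours 2 and 3. The others, in 0610010F05Rik, Rmnd5b, Srebf1, BC052190, BC057995, Tex14 and Wbp2, were low in tumours 2 and 4. For the Srebf1 and BC052190 probes the tumour channel of array 4 was not well above background. By tumour, 99.5%, 79.7%, 99.4% and 98.6% of the members lay within 0.5 of 0, close to the autosomal 99.4%, 80.7%, 99.1% and 98.6%.

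The 4 probes printed first were at or above 1 in tumour 1 and at or below -1 in tumour 4. They were 4 of the 7 autosomal probes with that pattern (0.0044% of 159074 autosomal probes), picked out after their values were seen. The opposite pattern, low in tumour 1 and high in tumour 4, was held by 0 chromosome 11 probes and 16 autosomal probes. The probe at 83492037 had 2.44, -0.019, -0.060 and -2.68 in tumours 1 to 4, and the probe at 83497710 had 3.44, -0.54, -0.085 and -3.32. The probe at 83957573, named AJ619664, had 3.597, 0.17, 0.18 and -3.196. The probe at 89546081, named AK020705, had 4.31, 0.68, -0.35 and -3.98. In tumours 2 and 3 alone they lay between -0.54 and 0.68, so the pattern rests on arrays 1 and 4.

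The signals show which channel was dim. On array 1 the probes gave 494, 427, 559 and 380.6 units in the tumour channel, in map order, against 89.6, 38.8, 45.5 and 18.9 in the spleen channel. On array 4 they gave 89.2, 35.7, 68.3 and 19.05 units in the tumour channel, against 580, 362, 637 and 306 in the spleen channel. On arrays 2 and 3 both channels gave between 147 and 743 units. For 3 of the 4 probes, all but the one at 83492037, the dim channel of arrays 1 and 4 was not well above background, so that those ratios are imprecise.

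Chromosome Y probes took the same form on these arrays. Of 606 such probes 453 (74.8%) were at or above 1 in tumour 1 and at or below -1 in tumour 4. The longest run of bases that any of the 4 probes shared with a Y probe in the files was 10 or 11 bases, and no genome was at hand for a wider search. Adjacent members did not follow: between the probe at 83497710 and that at 83957573, the 39 probes averaged 0.020 in tumour 1 and -0.018 in tumour 4. Whether these 4 probes measure chromosome 11 in these animals was not tested.

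**Figure D5:**
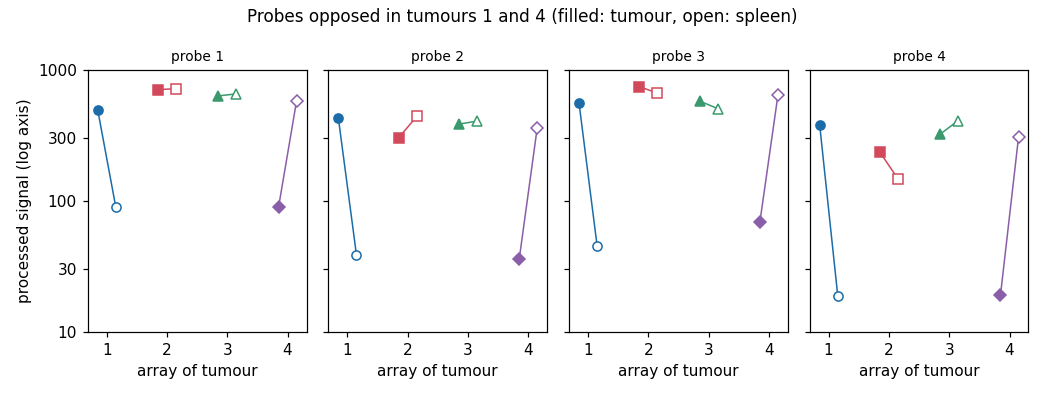
Processed signal (y axis, log scale) of the 4 probes that were high in tumour 1 and low in tumour 4, in map order from left to right, on the arrays of tumours 1 to 4 (x axis); filled markers are the tumour channel and open markers the spleen channel. The spleen channel is dim on array 1, the tumour channel is dim on array 4, and on arrays 2 and 3 the channels lie close together.

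The 2 neighbouring probes at 103381561 and 103387667, printed last, moved together. The first had -0.64, 1.104, 1.04 and -0.061 in tumours 1 to 4, and the second had -0.89, 1.06, 0.93 and 0.063. Tumours 2 and 3 were about 1 above 0 in both probes, tumour 1 was below 0 and tumour 4 was near 0. Signals were well above background in both channels on all 4 arrays. In tumours 1 and 3 segmentation set this stretch apart as 2 probes with means of -0.76 and 0.99, too few for a call. The probe of Dppa1, a gene of pluripotent cells, had 1.72, 0.78, 0.046 and 0.21, high in tumour 1 and intermediate in tumour 2. This probe was dim, though well above background in both channels on all 4 arrays. It gave 544 units in the tumour channel of array 1 and 162 in the spleen channel. On arrays 2 to 4 both channels gave between 105 and 181 units.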

How the data were processed

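The series holds 4 two-colour Agilent arrays. The deposited files came from Agilent Feature Extraction 12.0.1.1 with probe positions on mm9, per their headers, while the submitters' processing notes give 12.0.0. For the processed intensity, per the file headers, spatial and multiplicative detrending were switched on and dyes were normalized array by array; the background and dye methods stand there only as codes. Spot means and local backgrounds are raw intensities. The log10 ratio, also deposited, served only to check direction.

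From the processed intensities, log2 of red (tumour) over green (spleen) was computed per spot. Flagged spots were left out (4, 17, 2 and 7 on chromosome 11 of tumours 1 to 4), repeated spots of a probe averaged, and the autosomal median of each array subtracted, with no loess or quantile step. Members and gene lists were chosen with earlier results of these data known. Bins of 5 Mb needed 20 probes, bins of 200 kb 5 probes and genes 2 probes. Bin and gene means over all autosomes were tested against 0 with limma 3.58.1 (lmFit, eBayes; R 4.3.3) and Benjamini-Hochberg adjustment. This leaves out the spread of the reference, and nothing tests probes as replicates. The 4 contrasts per tumour were tested by exact sign-flip permutation. Segments came from penalised least squares (penalty factor 3). The limma fit and the segmentation were tested on simulated data, and the sign-flip test was not. Normexp correction used an offset of 50. Named genes were those within 200 kb of the Trp53 position, listed genes, the 5 highest and the 5 lowest gene means of 1 sign, and the 3 highest and the 3 lowest bins. Gene names are those of the array, updated through a RefSeq table (GRCm38.p6) from which no coordinate was used. Python 3.11.15 was used. The values of 1 listed gene are not reported here.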

Additional observations from a re-analysis of the deposited data

Results flagged for a closer look

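Of 42 gene and bin results checked, 4 had 1 tumour far from the other 3, by the gap to the nearest tumour over the range of the 4. Among values of equal spread chance gives this in about 1 of 20 results. That share does not apply here, because the arrays differed in noise. Dhx8, 0610025P10Rik and Acsf2 were also checked because their means were among the highest or lowest. In each of the 4 genes the tumour was tumour 2, the array with the widest spread between neighbouring probes. Dhx8 reached 0.684 there, against 0.21 to 0.24 in the other tumours. For 0610025P10Rik tumour 2 had 0.788, against 0.082 to 0.13. Acsf2 fell to -0.697, against -0.17 to -0.086. Shbg, on 1 probe beside Trp53, had 0.0841, against -0.0073 to 0.0047, a small difference in absolute size.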

How the results depend on the processing

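The alternatives include 5 that were added after seeing the data: the GC trend removed, the sign of tumour 1 or of tumour 4 turned, tumours 2 and 3 alone, and probes at or beyond 1 left out. The chromosome mean (0.0093) turned to -0.013 when centred on the mode and to -0.010 with the sign of tumour 1 turned, and ranged from -0.00057 to 0.020 with 1 tumour left out. The distal minus proximal difference (0.00059) turned to -0.0029 with normexp, -0.00032 with the intensity trend removed and -0.0035 with the GC trend removed, and ranged from -0.012 to 0.014 with 1 tumour left out, below 0 without tumour 2 or 3. The differences within 1 Mb (0.0041 to 0.036) and 5 Mb (0.013 to 0.016) kept their sign with 1 tumour left out. Called 5 Mb bins stayed at 0 in every setting. Called 200 kb bins (1) were 5 with normexp (10.4%, 4 higher, 1 lower), against 16.0% of autosomal bins. There were 2 with the intensity trend removed (4.17%, against 8.22%) and 2 with the slide as a random block (4.17%, against 14.4%). None was called with longer bins, the mode as centre, either sign turned, or tumours 2 and 3 alone. The autosomal share was 10.3% with longer bins, 10.9% with the mode, 4.84% with tumours 2 and 3 alone, and 0% with either sign turned. With 1 tumour left out the count was 0 or 1. It was 0 without tumour 1, 3 or 4, where 4.16%, 5.21% and 0% of autosomal bins were called. Called genes (0) were 2 at 4 probes, 62 with normexp, 24 with the slide as a random block (2.54%, 12 each way, estimated correlation -0.34; 8.32% of autosomal genes) and 0 to 12 with 1 tumour left out, the 12 (1.27%, 9 higher, 3 lower; 8.69% of autosomal genes) without tumour 2. The chromosome length in called segments (0%) averaged 0.012% at penalty factor 1.5 and 0.055% with the intensity trend removed, both from tumour 4, and 0% with any tumour left out. The causes were not tested. For 31 single genes and bins over the settings tried, 6 values moved by more than their spread over tumours and 517 did not. Of the 6, 2 belonged to Wrap53. No paired analysis was possible because there is 1 group and its replicate numbers come only from accession order. With 1 probe a gene, noise limits what could be seen, above all in tumour 2.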
